A study of Mus musculus with 2 samples.

Results

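The 50 genes described here encode the machinery that copies DNA and the machinery that divides the nucleus. They were chosen by name as 27 DNA replication genes and 23 mitosis genes, out of 21938 protein-coding genes in GENCODE M21. Each gene was represented by the strongest DNase-seq peak within 1 kb of any of its start sites, called its best peak. The question was how open these promoters were and what the sequence and the footprints under their best peaks held, replication genes against mitosis genes.

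The tissue was whole spleen of 14-day-old male B6CASTF1/J mice, an F1 cross between C57BL/6J and CAST/EiJ, with no treatment and no engineered allele in the labels. There was 1 group with 2 libraries. Tissue of 3 males was pooled for replicate 1, and 1 male gave replicate 2. The donor entry of the labels is identical for the pair although the number of males differs, so whether the libraries share animals is unknown. Technical differences and differences between animals cannot be told apart. Nothing was compared with another tissue or treatment, and no test was possible between conditions. Whole tissue mixes many cell types, so a promoter open in more cells and one opened more per cell cannot be told apart.

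DNase I cuts DNA where it is not wrapped in nucleosomes, so cuts pile up at active promoters, and a stretch inside a peak that is shielded from cutting is called a footprint. Genes that start DNA synthesis are classically switched on by E2F factors as cells enter S phase. Genes of mitosis peak later in the cycle and often carry a cell cycle homology region, or CHR, bound by the DREAM and MuvB complexes, with CCAAT boxes bound by NF-Y nearby. The young mouse spleen makes red cells and expands lymphocytes, so it holds many dividing cells.

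Letters were searched for on both strands. An E2F match was the word TTCCCGC, or alternatively TTCGCGC, or alternatively TTGGCGC, or alternatively TTGCCGC. The CHR was TTTGAA and the CCAAT box was CCAAT. The E2F word TTGGCGC can share its TTGG with a reversed CCAAT box, as it did at Mcm7 in replicate 1 and at Ccnb1 and Foxm1 in both libraries. A palindromic site counts as 1 match on each strand. The sequences below are the C57BL/6J reference of mm10, read 5′ to 3′ in the direction of the gene, so the CAST allele of these F1 mice was not read. Capitals mark matches to all 3 sets of letters in the whole promoters, and to E2F or the CHR alone in the 30-base stretches. A match describes the letters and is not a bound site.

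The first 6 sequences are the best peaks of replicate 1, ended at most 30 bases past the gene's most upstream start site there. Mcm5, Mcm6 and Pola1 show replication promoters with several E2F matches, and Cdk1, Ccnb2 and Top2a show mitosis promoters with a CHR and CCAAT boxes. They were picked after their matches were known.
Mcm5 (chr8:75109321-75109560, plus strand): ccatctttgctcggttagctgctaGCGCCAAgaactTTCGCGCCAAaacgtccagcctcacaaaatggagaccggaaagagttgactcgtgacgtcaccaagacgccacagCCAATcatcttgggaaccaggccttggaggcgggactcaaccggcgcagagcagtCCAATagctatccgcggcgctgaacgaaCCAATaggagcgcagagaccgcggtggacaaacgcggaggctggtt
Mcm6 (chr1:128359641-128359860, minus strand): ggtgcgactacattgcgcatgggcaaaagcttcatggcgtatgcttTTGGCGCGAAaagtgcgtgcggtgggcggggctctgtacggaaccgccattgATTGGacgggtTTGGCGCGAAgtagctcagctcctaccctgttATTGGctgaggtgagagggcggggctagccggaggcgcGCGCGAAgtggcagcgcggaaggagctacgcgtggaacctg
Pola1 (chrX:93632125-93632360, minus strand): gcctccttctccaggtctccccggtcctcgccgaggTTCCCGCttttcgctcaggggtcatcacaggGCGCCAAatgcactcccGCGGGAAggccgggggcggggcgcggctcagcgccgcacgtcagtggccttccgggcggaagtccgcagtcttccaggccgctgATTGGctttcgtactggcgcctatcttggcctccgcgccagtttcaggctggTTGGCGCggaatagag
Cdk1 (chr10:69352908-69353100, minus strand): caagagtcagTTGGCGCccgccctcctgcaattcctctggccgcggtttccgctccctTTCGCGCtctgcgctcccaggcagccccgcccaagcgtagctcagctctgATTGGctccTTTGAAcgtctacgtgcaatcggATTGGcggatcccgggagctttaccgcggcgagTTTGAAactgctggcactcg
Ccnb2 (chr9:70421517-70421700, minus strand): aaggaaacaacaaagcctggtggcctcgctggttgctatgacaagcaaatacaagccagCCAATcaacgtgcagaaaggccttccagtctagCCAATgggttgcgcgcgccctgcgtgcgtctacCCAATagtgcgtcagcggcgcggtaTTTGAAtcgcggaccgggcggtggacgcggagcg
Top2a (chr11:99024159-99024380, minus strand): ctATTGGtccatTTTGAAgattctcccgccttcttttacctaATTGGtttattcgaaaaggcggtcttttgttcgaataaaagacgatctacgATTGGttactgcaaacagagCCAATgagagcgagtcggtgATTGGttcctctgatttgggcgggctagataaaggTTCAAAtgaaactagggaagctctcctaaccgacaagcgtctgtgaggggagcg

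The next 6 are 30-base stretches around an E2F match of other replication genes, shown because their capitals can be compared directly. Only matches that overlapped a footprint widened by 5 bases in replicate 1 were eligible, and the one nearest the start site was taken. At Mcm4 a nearer match, at −74, overlapped none and is not shown.
Mcm2 (chr6:88898679-88898708, minus strand): gtggtctagttTTCGCGCGAAaaccggtgg
Mcm3 (chr1:20820275-20820304, minus strand): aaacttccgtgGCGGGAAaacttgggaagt
Mcm4 (chr16:15637605-15637634, minus strand): cggccccgggtTTCCCGCcaaaacgcaatc
Mcm7 (chr5:138171845-138171874, minus strand): gacgacgtTTCGCGCCAAtttcggttggcc
Orc1 (chr4:108579415-108579444, plus strand): tttcggttagtgGCGCGAAaagttttctcc
E2f8 (chr7:48881193-48881222, minus strand): tcccgctttccGCGCCAAatttttaaatcg

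The last 7 are 30-base stretches around the CHR nearest the start site at some other mitosis genes. In replicate 1 each of these 7 overlapped a footprint widened by 5 bases. Tpx2 and Ube2c, where the CHR overlapped none, are not printed.
Cdc20 (chr4:118437344-118437373, minus strand): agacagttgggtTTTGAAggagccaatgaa
Plk1 (chr7:122159453-122159482, plus strand): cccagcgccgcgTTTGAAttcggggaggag
Bub1b (chr2:118598239-118598268, plus strand): agagacgttaaaTTTGAAacttggcggccc
Kif11 (chr19:37376351-37376380, plus strand): tcgtctccatttTTCAAAattgaggcgcgg
Cenpa (chr5:30666890-30666919, plus strand): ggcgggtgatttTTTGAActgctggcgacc
Birc5 (chr11:117849289-117849318, plus strand): ccgcccgcgcgaTTTGAAtcctgcgtttga
Foxm1 (chr6:128362951-128362980, plus strand): gccggcgccaatTTCAAAcagcggaacaac

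All 27 replication genes and all 23 mitosis genes had a promoter peak in both libraries. Of all protein-coding genes 51.1% did. The median signal of the best peak was 12.7 and 7.88 for replication genes in replicates 1 and 2 (10.3 ± 3.38, SD, n = 2). It was 10.9 and 6.53 for mitosis genes (8.71 ± 3.08, SD, n = 2). All genes with a peak had 7.03 and 4.79. The signal is the authors' own value for each peak, on a scale that no label states. Both sets stood above the median gene in each library, and replication genes had the higher median in each. In the lists of other genes the order was the opposite, with medians of 12.01 and 7.44 for 35 other replication genes and 13.4 and 7.72 for 44 other mitosis genes. The gap between the 2 sets was smaller than the spread between the libraries. That spread includes the higher level of replicate 1, seen at 97.4% of genes peaked in each library. It therefore does not measure how much the gap itself varies.

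By the mean of both libraries, 20 of 27 replication genes and 18 of 23 mitosis genes lay at or above the median of the 11220 genes with a peak in both. At or above the 90th percentile lay 6 replication genes and 2 mitosis genes. The 6 include Gins1, whose best peak covered the start site of another gene, as described below. The sets overlapped over most of their range. Replication genes ran between 3.29 and 27.8 in replicate 1 and between 1.98 and 19.7 in replicate 2, wider at both ends than mitosis genes, which ran between 6.01 and 22.5 and between 3.55 and 11.7.

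**Figure D1:**
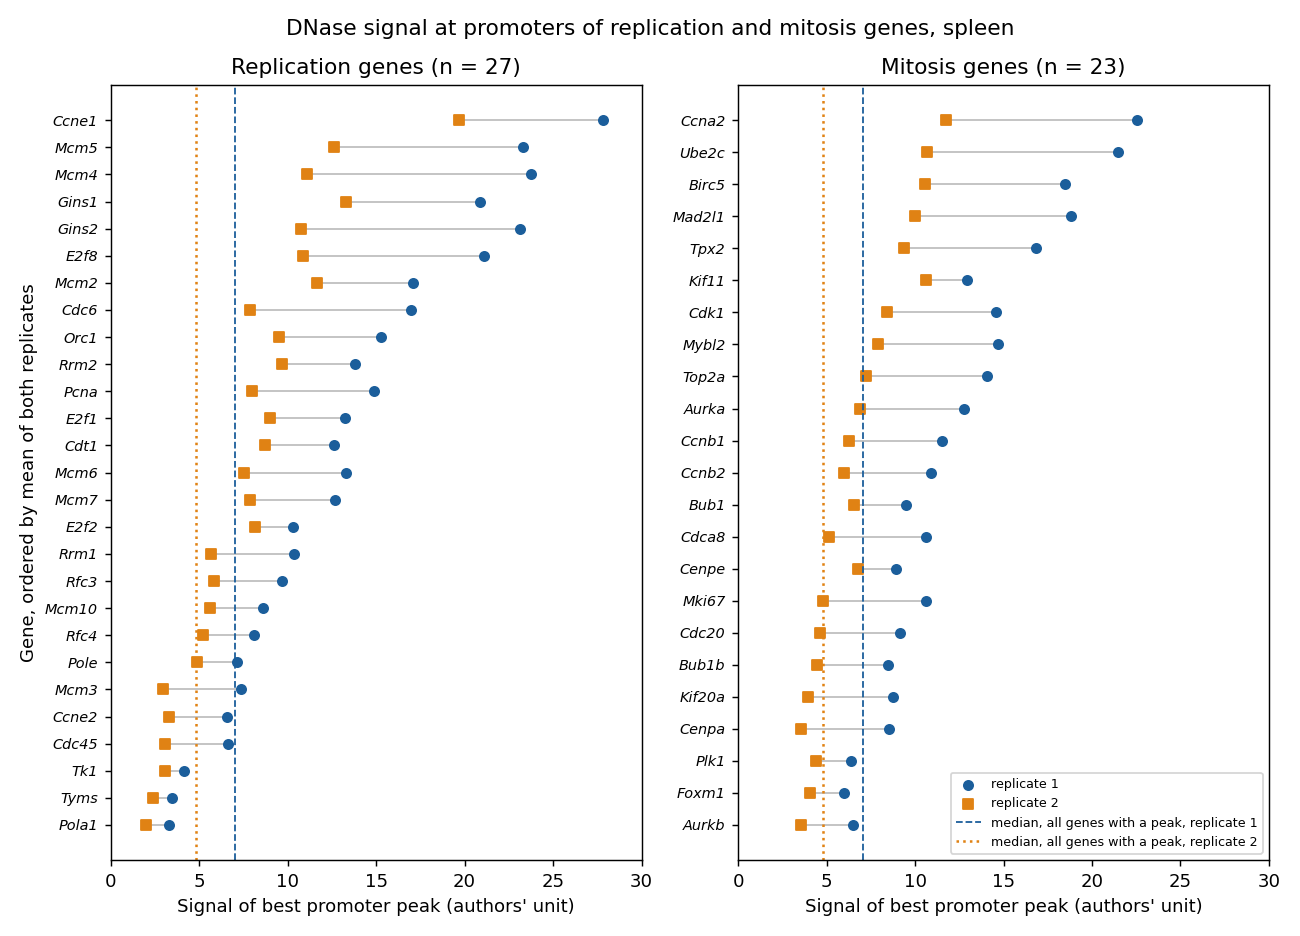
Signal of the best promoter peak (authors' unit, linear axis) of each replication gene (left) and mitosis gene (right), in replicate 1 (circles) and replicate 2 (squares), with the medians of all genes with a peak as vertical lines. Each gene's circle lies to the right of its square, and 20 of 27 replication genes and 18 of 23 mitosis genes have a mean at or above the median gene.

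Among the genes of the MCM helicase, the ring that unwinds DNA at the fork, the order spanned most of the replication range. Mcm4 had 23.7 and 11.1 in replicates 1 and 2. Mcm5 had 23.3 and 12.6. Mcm3 had 7.38 and 2.96. The first 2 were among the 6 strongest replication genes in the mean of both libraries, whereas Mcm3 was above the median gene in replicate 1 and below it in replicate 2. Mcm2, Mcm6 and Mcm7 had 12.7 to 17.1 in replicate 1 and 7.51 to 11.7 in replicate 2.

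The 3 origin licensing genes, which load that helicase onto DNA, kept close to each other. Cdc6, the loading ATPase, had 17.0 and 7.88. Orc1, the largest subunit of the origin recognition complex, had 15.3 and 9.50. Cdt1, the helicase's loading partner, had 12.6 and 8.69. In both libraries all 3 exceeded the median gene.

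The genes that assemble the replisome differed more. Gins2, a subunit of the GINS complex that activates the helicase, had 23.2 and 10.7. Its partner Gins1 had 20.9 and 13.3. Cdc45, which joins GINS on the helicase, had 6.65 and 3.04. By their best peaks, Gins1 and Gins2 were thus near the top of the replication genes and Cdc45 near the bottom. The best peak of Gins1 lay 540 bases upstream of its start site. It covered the start site of the divergent gene Abhd12, 659 bases away on the other strand. The values of that peak, and the rank of Gins1 by them, therefore cannot be given to Gins1. A peak at a start site inside Gins1 had 12.2 and 8.23. Mcm10, a scaffold of the same step, had 8.62 and 5.64.

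Of the polymerase and clamp genes, Pcna, the sliding clamp, was the strongest at 14.9 and 8.003. Pola1, the catalytic subunit of the primase-linked polymerase, was the weakest of all 50 genes in both libraries, at 3.29 and 1.98. Pola1 is on the X chromosome, of which males have 1 copy, and it was the only X-linked gene among the 50. Whether its copy number bears on its signal was not tested. Rfc3 and Rfc4, subunits of the clamp loader, had 9.70 and 5.86 and 8.11 and 5.22. Pole, the leading strand polymerase, had 7.16 and 4.88, close to the median gene.

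Genes of nucleotide supply split into the 2 ribonucleotide reductase subunits and the thymidylate pathway. Rrm2, the regulated subunit, had 13.8 and 9.65. Rrm1 had 10.3 and 5.69. Tyms, thymidylate synthase, had only 3.44 and 2.41. Both reductase genes were above the median gene in each library and Tyms was below it. Tk1, thymidine kinase, had 4.16 and 3.08, and its best peak began 897 bases downstream of the nearest start site, while the peak at its start had 3.11 and 2.24.

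The strongest promoter of all 50 genes was that of Ccne1, cyclin E, the trigger of S phase entry, at 27.8 and 19.7. Its mean was at percentile 99.1 of the genes with a peak in both. Its paralogue Ccne2 had 6.55 and 3.31, below the median gene in both libraries. E2f8, a repressor of the E2F family induced by the activators, had 21.1 and 10.9. The activator E2f1 had 13.3 and 8.99.

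E2f2, the activator known for its role in red cell maturation, had 10.3 and 8.17. That best peak lay 543 bases upstream of a second start site inside the gene, where its centre is 7747 bases after the first in replicate 1. At the first start site the strongest peak reached only 3.13 and 2.48.

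Among the mitotic cyclins and kinases, Ccna2, cyclin A, was the strongest mitosis gene at 22.5 and 11.7. Cdk1, the kinase that drives mitosis, had 14.6 and 8.39. Ccnb1 and Ccnb2, its B-type cyclins, had 11.5 and 6.29 and 10.9 and 6.00. These 4 were above the median gene in each library. Plk1, the polo kinase, had 6.38 and 4.38 and lay below it. Aurka, the kinase of spindle poles, had 12.7 and 6.88.

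Checkpoint and anaphase genes had Ube2c, the ubiquitin-conjugating enzyme of the anaphase-promoting complex, in front at 21.5 and 10.7. Mad2l1, which encodes the checkpoint protein Mad2, followed at 18.8 and 9.98. Bub1, Bub1b and Cdc20, kinases and target of the same checkpoint, had only 8.48 to 9.51 in replicate 1 and 4.47 to 6.53 in replicate 2.

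The chromosomal passenger genes were uneven as well. Birc5, survivin, had 18.5 and 10.5. Aurkb, the kinase of that complex, had 6.48 and 3.56, the lowest mean of the mitosis genes. Cdca8, borealin, had 10.6 and 5.12. Members of 1 complex thus differed by more in signal than the 2 sets did in their medians.

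Of the spindle genes, Tpx2, which nucleates microtubules, had 16.8 and 9.35, and the motor gene Kif11 had 12.9 and 10.6. Cenpe, the kinetochore motor, had 8.91 and 6.77. Kif20a, a motor of cytokinesis, had 8.75 and 3.94. The last 2 exceeded the median gene in replicate 1, and in replicate 2 only Cenpe did.

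The transcription factor genes of the set lay apart. Foxm1, an activator of mitotic genes, had 6.01 and 4.07, the lowest value of its set in replicate 1. Mybl2, its partner on MuvB, had 14.7 and 7.92. Among chromosome structure genes, Top2a, which untangles DNA, had 14.1 and 7.21, Mki67, which coats mitotic chromosomes, had 10.6 and 4.77, and Cenpa, the centromeric histone, had 8.54 and 3.55.

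Best peaks overlapped between replicates at 25 of 27 replication genes and at 23 of 23 mitosis genes, against 96.2% of all genes with a peak in both, and 21 of the 50 had identical ends, against 28.3%. The exceptions were Mcm7 and Cdc45, where 2 neighbouring peaks close in height changed places. At Mcm7 the 2 peaks had 12.7 and 12.6 in replicate 1, and 6.82 and 7.86 in replicate 2. Of the 10 strongest members in replicate 1, 8 were among the 10 strongest in replicate 2. Some best peaks of replicate 1 had a coding gene starting on the other strand within 1 kb. They were at 6 of 27 replication genes and 4 of 23 mitosis genes, against 18.8% of all genes with a peak. A peak by 2 such start sites, as at Orc1 with Prpf38a and Kif20a with Brd8, cannot be given to 1 gene. At Mcm4, with Prkdc starting 466 bases away, the best peak covered the Mcm4 start. A separate peak of 8.57 and 5.05 was centred at −461 and −471 there.

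E2F letters were more frequent under the best peaks of replication genes than of mitosis genes. In the 200 bases around the peak centre, 13 and 14 of 27 replication genes held an E2F match in replicates 1 and 2 (48.1% and 51.9%). Mitosis genes held one at 3 and 2 of 23 (13.0% and 8.70%). Of all genes with a peak, 15% and 15.9% did. The 35 other replication genes listed held one at 45.7% and 51.4%, and the 44 other mitosis genes at 22.7% and 20.5%.

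CHR letters ran the other way. They were found at 2 of 27 replication genes in each library, Mcm2 and Tk1 (7.41%), and at 13 and 11 of 23 mitosis genes (56.5% and 47.8%). Of all genes with a peak, 5.26% and 4.69% held them. The other replication genes had 5.71% in each library, and the other mitosis genes had them at 17 and 22 of 44. These shares depend on the stretch searched, and within 100 bases they were 18.5% for E2F at replication genes and 17.4% for the CHR at mitosis genes. The CHR match of Tk1 lay 899 bases downstream of the start site nearest its best peak.

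CCAAT boxes were present at 19 and 17 of 27 replication genes (70.4% and 63.0%) and at 19 and 18 of 23 mitosis genes (82.6% and 78.3%), against 33.3% and 33% of all genes with a peak. The other replication genes had them at 15 of 35 in each library (42.9%) and the other mitosis genes at 31 and 32 of 44 (70.5% and 72.7%), so the 2 replication lists differed in this share. A CHR and a CCAAT box together were found at 0 of 27 replication genes and at 12 and 9 of 23 mitosis genes, against 2.31% and 1.94% of all genes. The other replication genes had both at 1 of 35 in each library and the other mitosis genes at 15 and 18 of 44. GC boxes (GGGCGG), a letter string of housekeeping promoters, were found at 74.1% and 70.4% of replication genes and at 56.5% and 60.9% of mitosis genes, around the 64.4% and 67% of all genes. The letters TGACG, the core of the cAMP response element, were at 51.9% and 48.1% of replication genes, at 26.1% and 30.4% of mitosis genes and at 29.3% and 30.4% of all genes. ETS letters (CCGGAAG) were at 25.9% of replication genes and 17.4% of mitosis genes in each library, against 17.4% and 18.5% of all genes. The median GC content of the window was 62.0% and 62.5% for replication genes, 60% and 61.5% for mitosis genes and 65.5% and 66.0% for all genes, and its part in the motif counts was not tested.

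**Figure D2:**
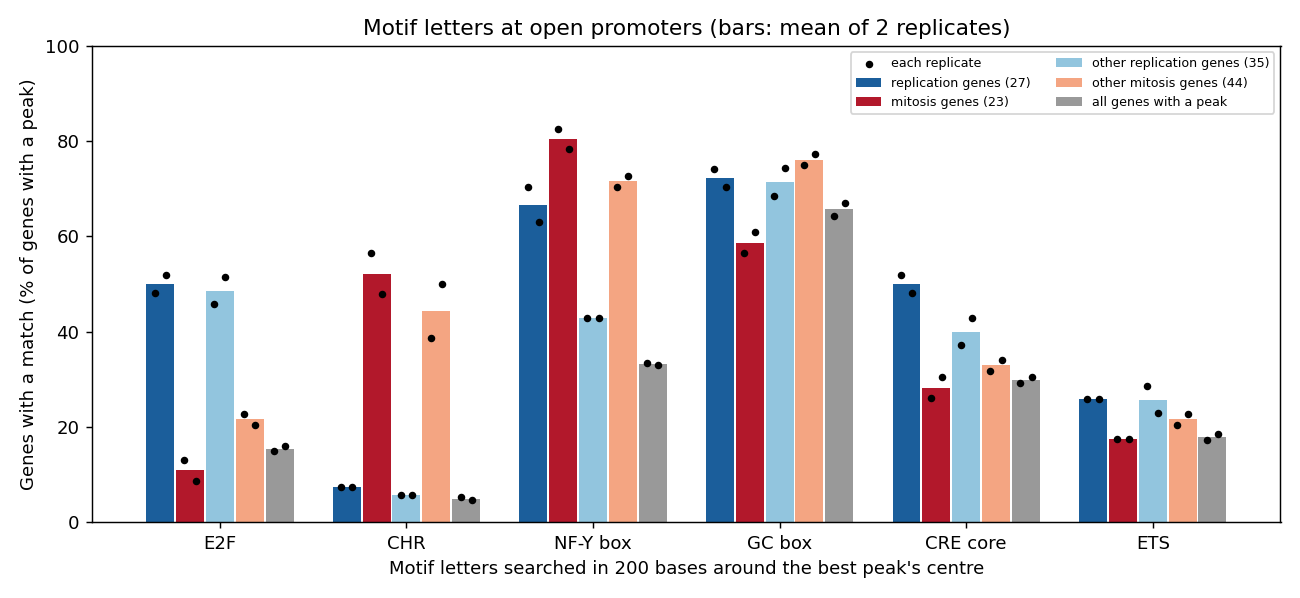
Share of genes with a promoter peak (percent, linear axis from 0) whose 200 bases around the best peak's centre hold each motif, where NF-Y box stands for CCAAT and CRE core for TGACG. Bars are the mean of 2 replicates and dots are each replicate, and E2F reaches 48.1% to 51.9% of replication genes while the CHR reaches 47.8% to 56.5% of mitosis genes.

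The E2F matches were unevenly spread over the roles. All 6 MCM helicase genes held one in both libraries, as did 2 of 3 licensing genes (Orc1 and Cdt1) and 4 of 5 polymerase and clamp genes (Pola1, Pole, Rfc3 and Rfc4). None of the 4 replisome assembly genes held one within the window in either library. Among S phase entry genes only E2f8 did. Pcna, Cdc6, Rrm2, Tyms, Tk1, Ccne1, Ccne2 and E2f2 had none of the 4 E2F words in the window, and looser E2F letters were not searched for. The strongest promoter of the list, Ccne1, held 3 GC boxes that touched footprints in both libraries. Of GC box matches under the best peaks of all genes, 78.0% and 73.6% touched a footprint. At E2f1 and Gins2 an E2F match lay in the called peak but outside the window. The windows of Tk1, E2f2 and Gins1 were centred 986, −642 and −639 bases from the nearest start site in replicate 1. They did not reach that start site, and other promoter peaks of these genes were not part of the count.

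The position of the E2F match relative to the start site varied among the MCM genes. Relative to the start site nearest the best peak, it lay upstream at Mcm4 (−220 and −74 bases), Mcm5 (−221, −209 and −206) and Mcm6 (between −147 and −14). It also did at Mcm7 (−227, −45 and −42 in replicate 1 and −110 in replicate 2). At Mcm7 the best peak and its nearest start site differed between replicates. Those peaks were centred 451 and 1121 bases after the gene's first start site, and all their E2F matches lay downstream of that one. At Mcm2 (86 and 89) and Mcm3 (22 to 45) the match lay downstream. At Mcm5 and Mcm7 the printed capitals join an E2F word of each strand in the run TTCGCGCCAA, and at Mcm6 the same run is reversed in 2 places. Orc1 had its match 7 bases past the start, and E2f8 had it at −167. Pola1, the weakest promoter, had 4 matches, so many E2F letters did not go with a high signal there.

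A match counted as touching a footprint if it overlapped one widened by 5 bases. E2F matches did so at 13 of 27 replication genes in each library (48.1%), at 4 and 3 of 23 mitosis genes (17.4% and 13.0%) and at 12.2% and 11.6% of all genes. In both libraries this held for all 6 MCM genes, Cdt1, Orc1, Gins2, Pola1, Rfc3, E2f1 and E2f8. The matches at Pole, Rfc4 and Rrm1 touched none in either library. Counted by match, 23 of 35 and 19 of 33 E2F matches in or reaching into the replication peaks touched a footprint, close to the 64.3% and 57.6% of E2F matches under the best peaks of all genes. The replication genes thus had more E2F matches, and the share of matches under a footprint was near that of any gene.

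CHR matches touched a footprint at 1 of 27 replication genes in each library, Tk1, and at 12 and 8 of 23 mitosis genes (52.2% and 34.8%), against 3.21% and 3.08% of all genes. The 8 mitosis genes with such a match in both libraries were Ccnb2, Cdk1, Plk1, Bub1b, Kif11, Cenpa, Birc5 and Foxm1. At Cdc20 and Cdca8 the CHR touched a footprint in replicate 1 and none in replicate 2. At Tpx2 and Ube2c it touched none in either. Counted by match, 13 of 17 and 8 of 14 CHR matches of mitosis genes touched a footprint, against 48.3% and 50.2% of CHR matches under the best peaks of all genes.

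**Figure D3:**
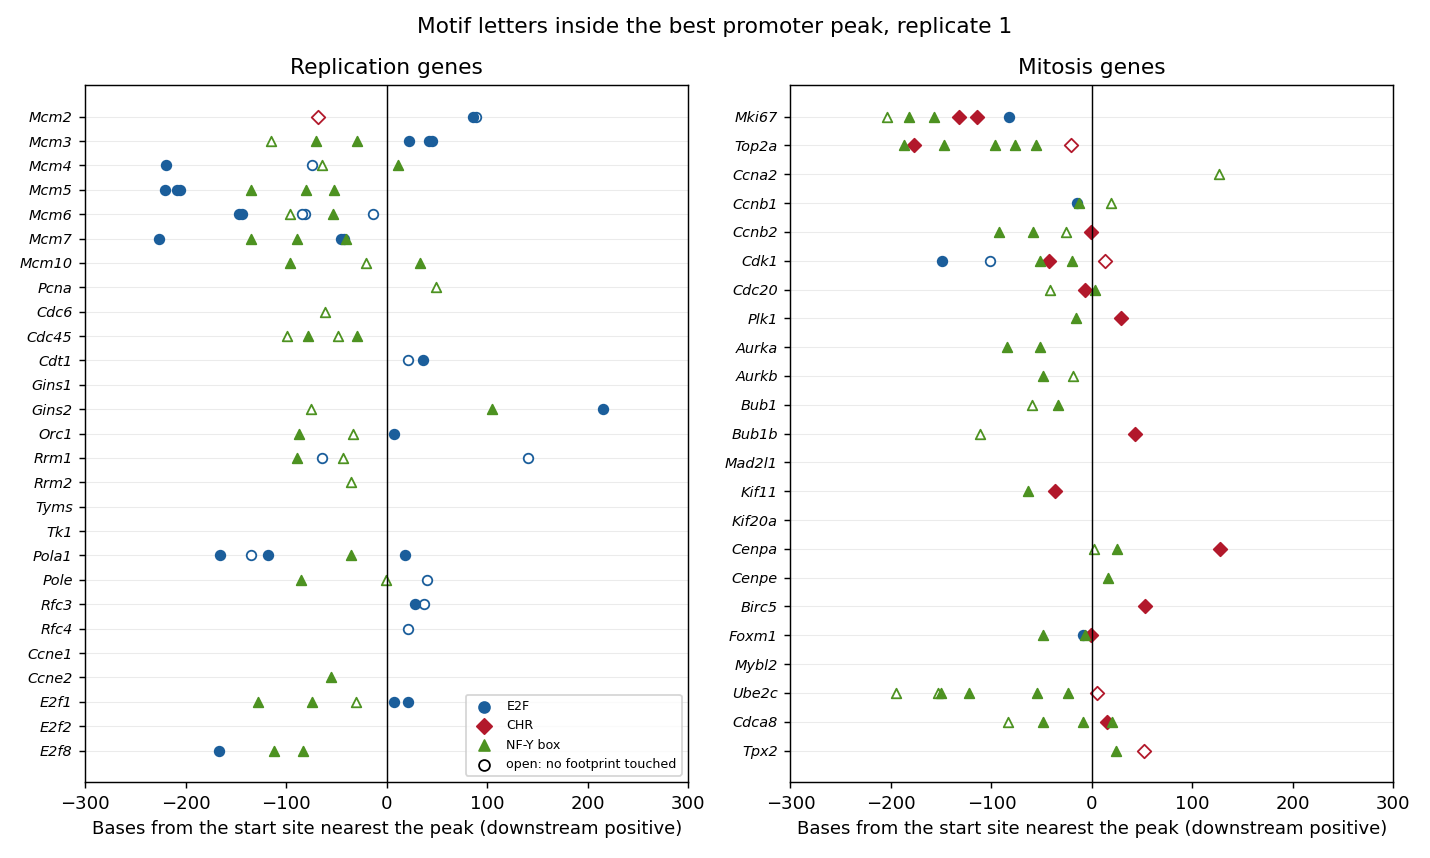
Positions of E2F (circles), CHR (diamonds) and CCAAT (triangles, NF-Y box) matches in the best peak of replicate 1, in bases from the start site nearest the peak, for replication genes (left) and mitosis genes (right). Filled marks touch a footprint and open marks touch none, the best peaks of Tk1, E2f2 and Gins1 lie outside the axis, and CHR marks gather near 0 at mitosis genes while E2F marks spread to −227.

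The CHR of mitosis genes lay close to the start site. Of their matches 13 of 17 and 14 of 14 fell within 60 bases of it, against 33.3% and 35.3% of CHR matches at all genes. It was at −1 at Ccnb2, where the letters TTTGAA are seen near the end of the printed promoter, at −7 at Cdc20 and at 29 at Plk1. Mki67 and the upstream match of Top2a, at −177, were the exceptions in replicate 1, as was Cenpa, whose match lay at 128 from the start nearest the peak of replicate 1 and at 8 from the one nearest the peak of replicate 2. The peaks of replicate 2 did not reach the Mki67 matches or the upstream match of Top2a, so these were not counted there. The limit of 60 bases was chosen after the positions were seen. Cdk1 held 2 CHR matches, of which the one at −43 touched a footprint in both libraries and the one at 13 in neither.

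CCAAT boxes of mitosis genes lay mostly upstream, 35 of 43 and 35 of 41, as at all genes (82.7% and 83.2%). Matches touched a footprint at 15 and 11 of 27 replication genes and at 17 and 14 of 23 mitosis genes, against 24% and 22% of all genes. At Top2a, the gene of topoisomerase II alpha, 5 CCAAT boxes lay in the peak of replicate 1 and all touched a footprint. The peak of replicate 2 held 4, of which 3 touched one. At Ube2c there were 6, of which 4 touched one in replicate 1 and 6 in replicate 2. Neighbouring CCAAT boxes were 25 to 35 bases apart in 3 of 20 and 2 of 13 pairs at replication genes and in 12 of 24 and 11 of 22 pairs at mitosis genes, against 24.5% of pairs at all genes in each library. At Ccnb2 both gaps were 33 bases and at Cdk1 the gap was 32 bases, as the capitals in the printed promoters show. This range was chosen after the spacings were seen.

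Every member's best peak held at least 1 footprint in each library, as did 98.9% and 99.3% of all best peaks. The median number was 5 in both sets and libraries, against 4 at all genes. Footprints covered 38.2% and 33.7% of the peak bases of replication genes, 37.4% and 31.3% of those of mitosis genes and 32.7% and 29.6% of those of all genes. Among replication genes E2f8 had the most in replicate 1 (9 and 7) and Gins2 in replicate 2 (8 and 9). Among mitosis genes Mki67 had the most in replicate 1 (9 and 6) and Foxm1 in replicate 2 (5 and 8). Mcm10 had 2 in each library, and Pcna had 4 and 1 although its signal was above that of the median gene. Ccne1 had the largest covered share of the 50 genes, 65.4% and 61.8%. Peaks were of like width in both sets, with medians of 220 and 220 bases for replication genes, 220 and 200 for mitosis genes and 220 and 200 for all genes.

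The libraries differed in level. Replicate 1 had the higher signal at all 50 members, as at 97.4% of genes peaked in each library. On the log2 scale the ratio of replicate 1 to replicate 2 had a median of 0.69 for replication genes, 0.89 for mitosis genes and 0.70 for all genes. Above the all-gene median lay 13 of 27 replication genes and 18 of 23 mitosis genes. The other listed genes gave 16 of 35 for replication, with a median of 0.69, and 33 of 44 for mitosis, with a median of 0.90. The ratio was highest at Mcm3 (1.32), Cenpa (1.26) and Mki67 (1.15) and lowest at Kif11 (0.29), E2f2 (0.34) and Cenpe (0.40). With 1 library on each side this difference has no replicate check, and the number of animals, the library and the peak calling cannot be told apart.

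**Figure D4:**
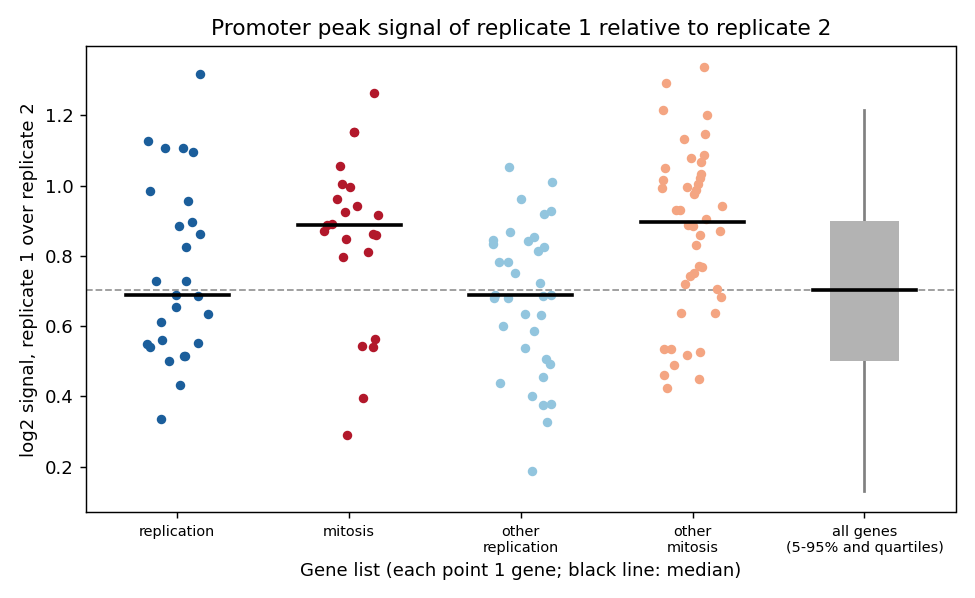
The log2 ratio of best-peak signal, replicate 1 over replicate 2, with 1 point for each gene, a black line at the median of each list and, for all genes with a peak in both, a box of the quartiles with a line over the 5th to 95th percentiles. Mitosis genes have a median of 0.89 and other mitosis genes 0.90, while both replication lists have 0.69 and all genes 0.70.

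Within the gene widened by 10 kb, and away from any coding start site, 26 members had at least 1 peak in replicate 1 and 12 in replicate 2, and 24 had none in either. Of the 11220 genes with a promoter peak in both libraries 62.4% and 40.1% had at least 1, and of all coding genes 47.4% and 29.6% did. There were 69 and 29 such peaks, and E2f2 and Aurkb held the most.

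At E2f2 there were 9 and 7. The strongest, 5707 bases after the first start site, had 15.01 and 7.41. Another at 2577 bases had 10.02 and 5.81. Both peaks inside the gene were stronger than those at its first start site, and in replicate 1 the one at 5707 bases exceeded the best promoter peak as well.

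Around Aurkb there were 9 and 8, and 7 in each library overlapped a tRNA gene of the RefSeq annotation. In replicate 1 their centres lay between −8636 and −3836 bases from the first start site. The strongest had 6.85 in replicate 1 and 5.60 in replicate 2, above the Aurkb promoter in each library. The tRNA genes were looked up after the peaks were seen.

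**Figure D5:**
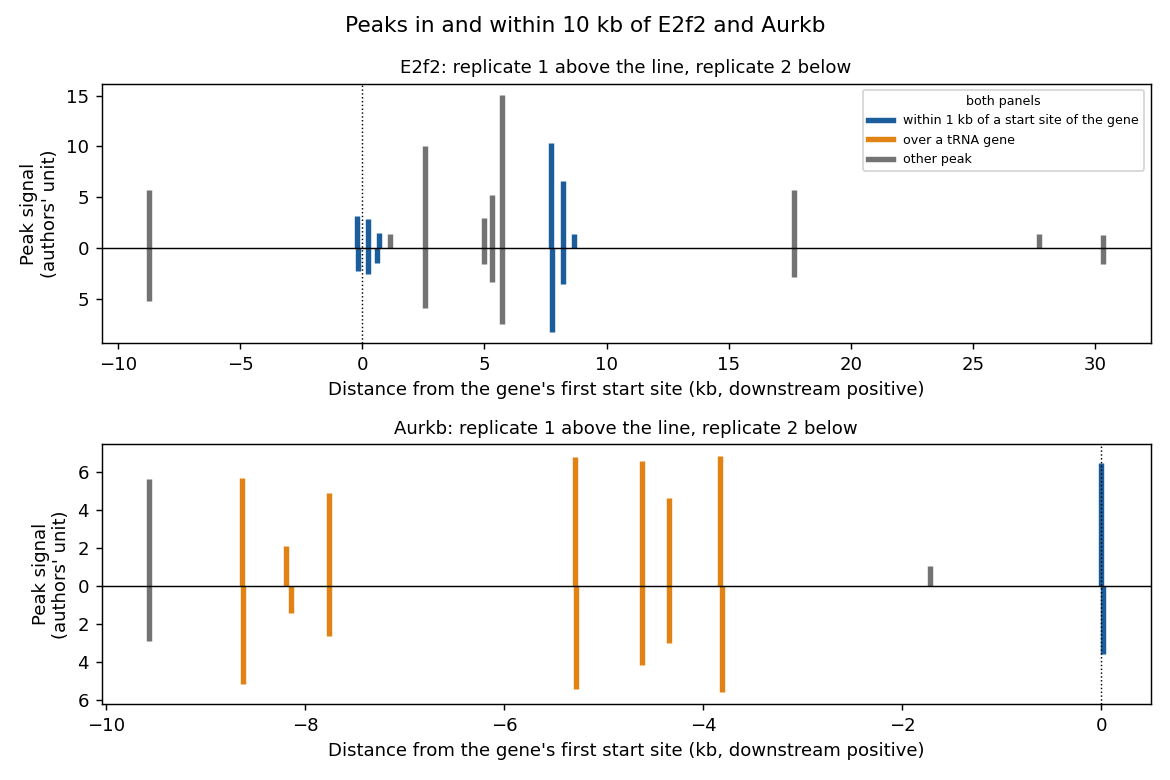
Peaks in and within 10 kb of E2f2 (top) and Aurkb (bottom) by distance from the gene's first start site in kb, with the signal (authors' unit) of replicate 1 drawn upward and of replicate 2 downward. At E2f2 the peak at 5707 bases stands highest in replicate 1 at 15.01, and at Aurkb 7 peaks in each replicate lie over tRNA genes.

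Other genes of both pathways, from lists that leave the members out, were all open at their promoters too. A peak in both libraries was present at 35 of 35 other replication genes, 44 of 44 other mitosis genes and 22 of 22 cell cycle regulators. By the mean of both libraries the highest of the replication and mitosis lists were Pold1, the catalytic subunit of the lagging strand polymerase, at 29.7 and 17.6, and Ncapg, a condensin subunit, at 24.8 and 17.3. The regulators, which include cyclins D and the Rb family, had a median signal of 7.83 and 4.58, near that of all genes.

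The libraries held 48286 and 28837 peaks and 191945 and 125693 footprints. Read depth is not given, so no counting interval is stated. Of 13 spleen markers, 6 had a promoter peak in both libraries, the B cell genes Cd79a and Cd79b, the T cell gene Cd3d, the red cell genes Klf1 and Epor and the blood cell factor gene Tal1. Cd3d was the weakest in each library, at 2.75 and 1.24. No peak in both was called at Ms4a1, Cd3e, Spic, Adgre1, Tlx1, Nkx2-5 and Tcf21, and the macrophage markers Spic and Adgre1 and the spleen stroma markers Tlx1, Nkx2-5 and Tcf21 had none in either library. Of 10 markers of liver, pancreas, muscle and neurons, 3 had one, Cela1, Ckm and Rbfox3, at 0.805 to 3.73. Every replication and mitosis gene but Pola1 and Tyms exceeded the strongest of these in replicate 1. In replicate 2 the strongest was Ckm at 2.969, and Mcm3 (2.961), Tyms (2.41) and Pola1 (1.98) lay below it.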

How the data were processed

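DNase-seq was made from 2 spleen libraries of 1 group. Per the labels, reads were aligned to mm10, with the aligner, the callers and every version not given in the sources used here. For each library the authors deposited 2 peak lists, with 1 signal value for each peak, and a footprint list of positions. The list covering fewer bases was used. The deposited false discovery rates were not used. The best peak was the strongest overlapping the 1000 bases either side of a GENCODE M21 start site by at least 1 base. Footprints were widened by 5 bases when set against motif letters, and sequence came from the RefSeq mm10 (GRCm38.p6) genome, whose chromosomes held every coordinate. All 50 members could be named, and those with the highest and lowest signal, the most footprints and the extreme replicate ratios were given values in both libraries. Of the listed spleen markers, 2 are not reported here. Members and lists were chosen with earlier results of these data known. With 1 group no test was made; counts stand beside those of all genes. The signal's read depth is unknown. Python 3.11.15, NumPy 2.4.6 and Matplotlib 3.10.9 were used, and the peak choice and motif search were tested on simulated data.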

Additional observations from a re-analysis of the deposited data

How the results depend on the processing

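Promoter peaks in both libraries were found at 27 replication and 23 mitosis genes with windows of 500 and 2000 bases, the larger peak lists, the strongest 50% of peaks, equal numbers of strongest peaks, and start sites of protein-coding transcripts alone; all genes ranged between 43.0% and 56.1%. In each replicate alone, the median signal was 7.88 to 12.7 for replication and 6.53 to 10.9 for mitosis genes. The motif shares (means of both replicates) changed with the stretch searched. For E2F at replication genes the share was 50% in 200 bases, 59.3% in the peak as called, 18.5% in 100 bases and 63.6% in RefSeq promoters of 300 bases, which matched 40 of 50 members. For E2F at mitosis genes it was 10.9%, 15.2%, 4.35% and 16.7%, and at all genes 17.3%, 7.74% and 14.1% in the last 3. The CHR at mitosis genes went to 17.4% in 100 bases and 66.7% in RefSeq promoters, at replication genes to 0% and 18.2%, and at all genes to 2.03% and 17.6%. CCAAT in 100 bases was at 61.1% of replication, 58.7% of mitosis and 24.3% of all genes. With unwidened footprints, E2F matches touched one at 35.2% of replication genes, where widened footprints gave 48.1%. CCAAT matches touched one at 52.2% of mitosis genes, where widened footprints gave 67.4%. Of all genes, 9.35% had an E2F match and 17.8% a CCAAT match touching an unwidened footprint. The causes were not tested. The order of the 2 sets for E2F and the CHR was the same in each of these stretches. No paired analysis was possible because there is 1 group. Footprints have no score and read depth is not given, so the depth behind a missing footprint is unknown.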
